A study of Mus musculus with 6 samples.

Results

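The genes described here are a set of 10 that the intestinal epithelium uses against microbes or switches on under inflammation: the lectin genes Reg3a, Reg3b, Reg3g and Reg1, the secreted protein genes Retnlb and Pla2g2a, the oxidant-producing enzyme genes Duox2 and Nos2, Duoxa2, and Sprr1a. Members were all probes on the array whose gene name is one of these 10, which gave 10 of the 36163 gene names on the array and 11 probes of 60 bases out of 55681 non-control probes, Duoxa2 having 2 probes and every other gene 1. The tissue was jejunum, from 6 male mice of the inbred strain C57BL/6J. VND3207, a compound known here only by its code name, was given into the stomach of 3 mice at a dose of 100 mg/kg, and 3 control mice received the vehicle in an equal volume. Radiation of 9 Gy followed in all 6 mice after 0.5 h, and tissue was collected 6 h after that. The question is which genes of the irradiated gut VND3207, when it precedes the radiation, shifts in level. Both groups were irradiated, so it holds no measure of the response to radiation itself.

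Reg3 proteins are small secreted lectins that bind bacterial surfaces and keep bacteria away from the epithelium. Their genes are induced by microbes through Myd88 and through the cytokine IL-22, which acts by way of Stat3. In the mouse, Reg3g acts against Gram-positive bacteria and Reg3b has been linked to defence against Gram-negative ones. Duox2 releases hydrogen peroxide at the epithelial surface and needs its partner Duoxa2 to mature, and Nos2 makes nitric oxide once it has been induced. Retnlb is a goblet cell product and Pla2g2a a phospholipase of Paneth cells that attacks bacterial membranes. Sprr1a is a small proline-rich protein of cell envelopes that appears in stressed or regenerating tissue.

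All values below are log2 of the scanner's processed signal minus the 75th percentile of the same array, so 0 is the 75th percentile and 1 unit is a doubling. The share of spots well above background was 58.8% to 61.4% on the VND3207 arrays and 66.7% to 70.0% on the vehicle arrays, and no spot was saturated. Each group was scanned on a slide and in a scan of its own, and therefore slide or scan cannot be told apart from group for any gene. Precision is limited by the number of arrays. The whole jejunum wall was measured, so fewer cells of a type and less RNA per cell cannot be told apart. Its markers were present: the 9 enterocyte markers, Gata4 of the proximal small intestine and all 8 goblet cell symbols on the array were among the probes tested.

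Promoters of 7 of the 10 genes were found by symbol in the RefSeq table of the GRCm38.p6 build. Printed sequences are the 250 bases before the annotated start, read 5′ to 3′ on the gene's strand. Those of Reg3b (chr6:78370635-78370884, plus strand) and Reg3g (chr6:78468875-78469124, minus strand) are shown because both genes belong to one lectin cluster and share the most sequence of any pair, and capitals mark their longest common run.
Reg3b: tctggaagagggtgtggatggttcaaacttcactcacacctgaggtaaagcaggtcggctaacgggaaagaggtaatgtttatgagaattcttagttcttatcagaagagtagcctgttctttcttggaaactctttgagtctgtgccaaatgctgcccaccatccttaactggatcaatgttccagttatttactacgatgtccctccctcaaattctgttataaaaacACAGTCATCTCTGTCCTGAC
Reg3g: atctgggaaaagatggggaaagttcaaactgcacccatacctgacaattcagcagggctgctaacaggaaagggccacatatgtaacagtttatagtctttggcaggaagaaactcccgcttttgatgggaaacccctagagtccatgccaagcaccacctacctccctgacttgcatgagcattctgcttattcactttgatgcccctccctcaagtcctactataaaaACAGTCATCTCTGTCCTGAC
These 2 windows matched at 177 bases in a global alignment, 70.8% of their length, and shared a run of 20 bases that ends at the start site. The other 20 pairs of member promoters matched at 54.8% to 62.4%. Start sites of the 4 member Reg genes lie in the order Reg3b, Reg3a, Reg1 and Reg3g within 97989 bases of chromosome 6. Letters TTCNNNGAA, the form of a STAT site, were found in Reg3b 129 bases before the start and in no other member window, against 7.02% of 32851 promoter windows. A TATAAA on the gene's own strand began 29 bases before the Reg3b start, 27 before that of Reg3g and 30 before that of Reg1, where 7.59% of all windows held one.

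Duox2 and Duoxa2 stand head to head on chromosome 2, with 673 bases between their start sites. Both windows, Duox2 at chr2:122298228-122298477 on the minus strand and Duoxa2 at chr2:122298650-122298899 on the plus strand, are shown because the 2 genes followed each other from mouse to mouse, and that of Sprr1a (chr3:92485882-92486131, minus strand) because its probe had the largest difference tested among the members. Capitals mark TGANTCA and, on the gene's strand, TATAAA, neither of which is in the Duox2 window. TGANTCA is a loose form of an AP-1 site, with any base in the middle, and is found alike on both strands. That base is A in the Duoxa2 match and G in both Sprr1a matches.
Duox2: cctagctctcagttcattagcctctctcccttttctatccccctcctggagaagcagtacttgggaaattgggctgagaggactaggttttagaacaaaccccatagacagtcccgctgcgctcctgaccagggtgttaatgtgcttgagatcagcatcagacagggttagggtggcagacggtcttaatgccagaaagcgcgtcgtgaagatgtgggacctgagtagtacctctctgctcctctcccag
Duoxa2: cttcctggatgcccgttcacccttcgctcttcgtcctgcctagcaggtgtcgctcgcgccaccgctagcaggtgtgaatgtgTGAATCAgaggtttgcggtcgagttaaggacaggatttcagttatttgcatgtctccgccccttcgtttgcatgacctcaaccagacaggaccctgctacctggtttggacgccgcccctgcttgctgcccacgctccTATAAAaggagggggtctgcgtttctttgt
Sprr1a: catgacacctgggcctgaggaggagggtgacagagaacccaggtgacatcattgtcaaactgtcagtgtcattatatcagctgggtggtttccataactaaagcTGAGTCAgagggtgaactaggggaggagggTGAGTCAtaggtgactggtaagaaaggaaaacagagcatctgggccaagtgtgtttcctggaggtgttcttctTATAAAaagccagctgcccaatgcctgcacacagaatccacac
TGANTCA occurred in 6.75% of all promoter windows, once in Duoxa2, once in Reg1 and at 2 places in Sprr1a, 146 and 116 bases before its start. Such matches describe letters in these windows and show no binding.

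Of the 11 probes, 10 had a signal well above background on 3 or more arrays and were tested, and the probe of Retnlb was not. With VND3207, 2 of the 10 fell and 0 rose, namely Sprr1a and Reg3b (limma, Benjamini-Hochberg adjusted p under 0.05 over 36101 probes). Among all probes tested 14.6% were called lower and 0.925% higher, so the members' share is near the background. The same 2 probes were those with an unadjusted p under 0.05. For these 2 probes all VND3207 mice were below all vehicle mice, and for 0 probes above; among all probes the groups lay apart in 34.3%, with VND3207 below in 24.9% and above in 9.41%. The median difference of the 10 probes was -0.03, against -0.06 for all probes. The split of calls over the array moved with the scaling: 5.97% of them were higher as reported, 20.7% after quantile normalization, 22.4% in the deposited value table and 27.2% after a correction for spot position and brightness.

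**Figure D1:**
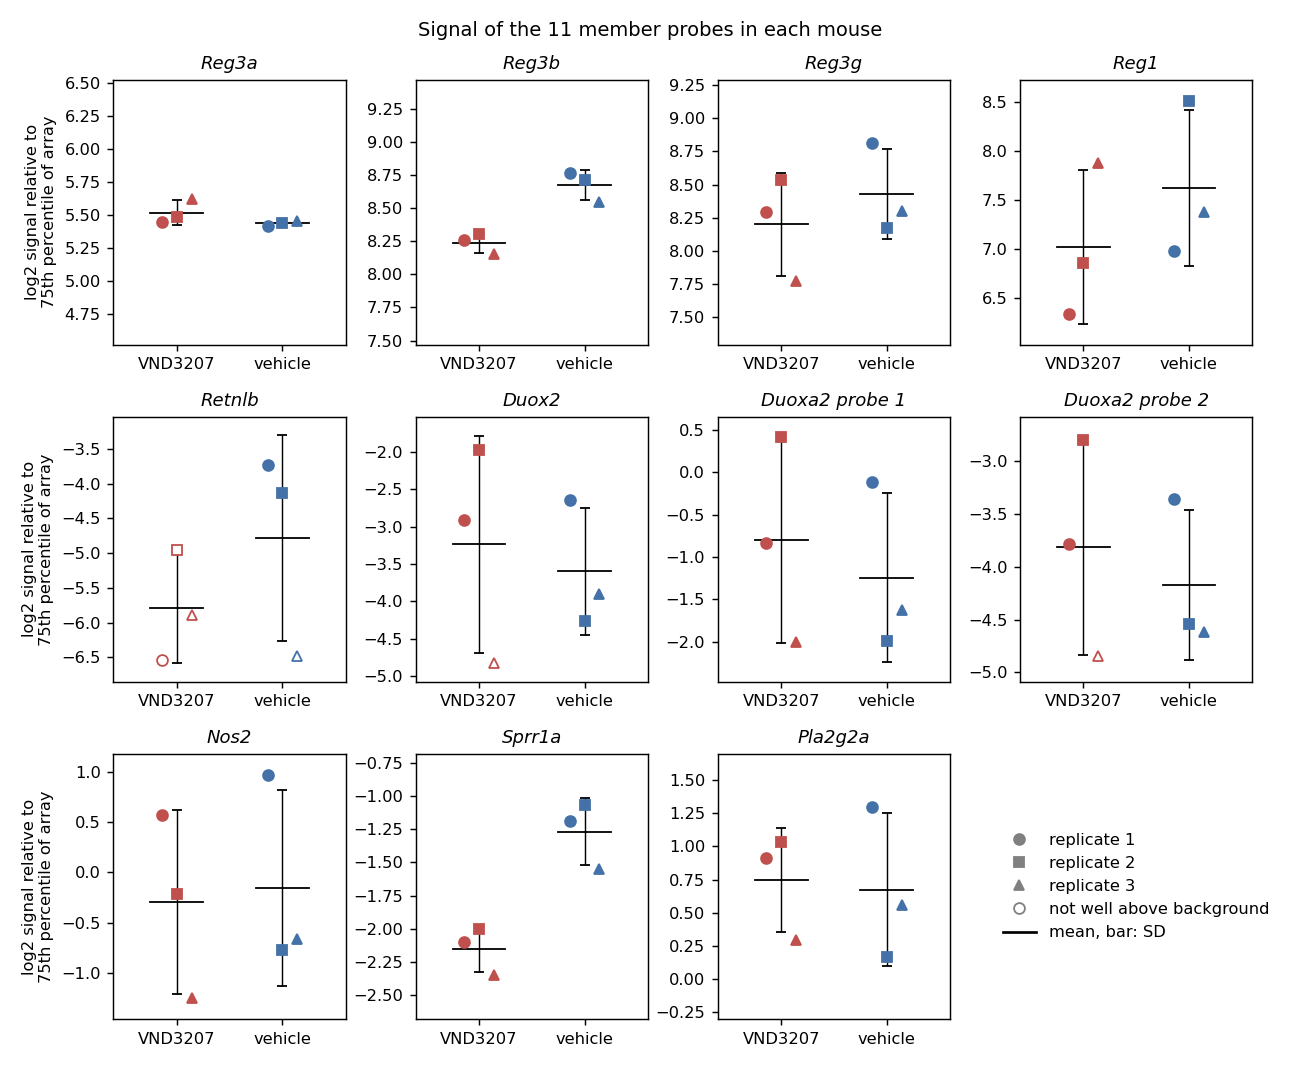
Signal of each member probe, as log2 relative to the 75th percentile of its array, in the 3 VND3207 mice (red, left) and the 3 vehicle mice (blue, right), with the mean and SD of each group. Each panel spans at least 2 units. For Sprr1a and Reg3b all VND3207 mice lie below all vehicle mice, and for the other probes the groups overlap.

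Reg3b, the lectin gene linked to Gram-negative defence, was at 8.26, 8.30 and 8.15 in VND3207 replicates 1, 2 and 3, against 8.77, 8.71 and 8.55 in vehicle replicates 1, 2 and 3. All VND3207 mice were below all vehicle mice. The difference was -0.44 ± 0.11 (SE, n = 3 and 3, limma adjusted p = 0.0432), which puts VND3207 mice at 73.9% of the vehicle level. Its probe covers bases 78323323 to 78323382 of chromosome 6 (mm9, per the files). The call depended on the scaling, with -0.04 after quantile normalization (adjusted p = 0.860), 0.00016 in the deposited value table (adjusted p = 0.999) and 0.06 after the correction for spot position and brightness (adjusted p = 0.788). It was also lost without any 1 array (adjusted p from 0.0535 without vehicle replicate 3 to 0.136 without vehicle replicate 2). Among the 1000 probes closest to it in brightness 19.7% were called lower, with a median of -0.21. Among the 9 enterocyte markers 5 were called lower (Fabp1, Fabp2, Anpep, Vil1 and Lct), with a median of -0.39 and a summed level of 2061 to 2289 in VND3207 mice and 2828 to 3319 in vehicle mice as multiples of the 75th percentile. Like Reg3b itself, these markers depended on the scaling: 0 of the 5 passed after quantile normalization (median -0.13), and Anpep alone passed after the correction for spot position and brightness (median -0.04). Their part in the difference was not tested.

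Reg3g, the lectin gene that acts on Gram-positive bacteria, was at 8.29, 8.53 and 7.77 in VND3207 mice and 8.81, 8.17 and 8.30 in vehicle mice. The lowest value was that of VND3207 replicate 3 and the highest that of vehicle replicate 1, and the groups overlapped. Its difference was -0.23 ± 0.26 (SE, adjusted p = 0.642), with a 95% interval from -0.85 to 0.39. The levels of Reg3b were close within each group (SD 0.08 and 0.11 in VND3207 and vehicle mice), whereas those of Reg3g were spread (SD 0.39 and 0.34). The probes of the Reg genes on the array, Reg2, Reg3d and Reg4 included, shared no run longer than 7 bases.

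Reg3a, a further lectin of the cluster, was at 5.45, 5.48 and 5.62 in VND3207 mice and 5.42, 5.44 and 5.45 in vehicle mice. These were the closest values of any member, 1.15-fold apart from lowest to highest. The difference was 0.08 ± 0.10 (SE, adjusted p = 0.665), with a 95% interval from -0.15 to 0.32.

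Reg1, first known from regenerating pancreatic islets and made in large amounts by pancreatic acinar cells, was at 6.33, 6.85 and 7.88 in VND3207 mice and 6.98, 8.52 and 7.38 in vehicle mice. VND3207 replicate 3 and vehicle replicate 2 were highest, and the range over the mice was 4.55-fold. The difference of -0.61 ± 0.53 (SE, adjusted p = 0.540) was within this spread, and it was -1.03 without VND3207 replicate 3, -0.93 without vehicle replicate 1, -0.26 without VND3207 replicate 1 and -0.16 without vehicle replicate 2. Pancreatic acinar markers were all below 0 in their difference (11 of 11 measured, of 16 symbols on the array), with Cpa1, Cela3b and Cel called lower. Cpa1 and Cela3b were well above background on 0 of 3 VND3207 and 3 of 3 vehicle arrays. They entered the test only through the vehicle arrays, so their calls do not support a decrease. With normexp background correction both were at -0.59 (limma adjusted p = 0.332 and 0.158), while Cel passed at -0.80 (0.0447). Cpa1, Cela3b and Cel did not pass after quantile normalization (adjusted p = 0.0982, 0.0571 and 0.0652) or the correction for spot position and brightness, after which not all of the list was below 0. Cela2a, Pnlip, Prss2, Try4 and Try5 were too dim to be tested. The summed level was 1.46 to 1.63 in VND3207 mice and 1.76 to 3.41 in vehicle mice, highest in vehicle replicate 2. In VND3207 replicate 3, where Reg1 was the highest of its group, the sum was 1.63, against 1.46 in replicate 1 and 1.62 in replicate 2. The part of pancreatic tissue in the Reg1 values was not tested.

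The 3 other Reg genes, which are no members, gave 0 calls, with differences from -0.66 to -0.20. Reg3d was at -0.51 ± 0.13 (SE, adjusted p = 0.0507) with all VND3207 mice below all vehicle mice, Reg4 at -0.20 ± 0.11 (adjusted p = 0.303) and Reg2 at -0.66 ± 0.43 (adjusted p = 0.403). Reg4 passed after the correction for spot position and brightness, at -0.73 (adjusted p = 0.0306).

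**Figure D2:**
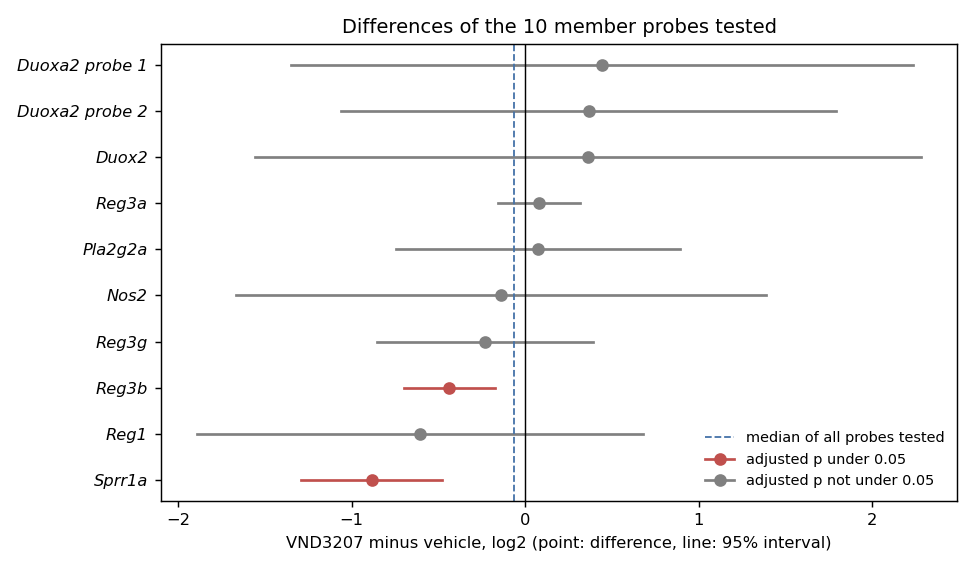
Difference of VND3207 minus vehicle on the log2 scale for the 10 member probes tested, with the 95% interval of limma. The intervals of Sprr1a (-1.29 to -0.48) and Reg3b (-0.70 to -0.18) lie below 0, and those of Duox2 and the Duoxa2 probes span over 2 units.

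Retnlb, the goblet cell gene of the antibacterial protein RELM beta, was well above background on 0 of 3 VND3207 arrays and 2 of 3 vehicle arrays. Its signal was -6.53, -4.95 and -5.89 in VND3207 mice and -3.73, -4.14 and -6.49 in vehicle mice, and the groups overlapped. Measured means were -5.79 and -4.79 in VND3207 and vehicle mice, with most of these readings near background, so no fold is given. Tested with no filter on dim probes, the difference was -1.01 ± 0.80 (SE, limma adjusted p = 0.455). Goblet cell markers had 0 calls in 7 measured genes, Clca1 and Clca3 being counted once because they share a probe, and 2 with an unadjusted p under 0.05, with a summed level of 1279 to 1283 in VND3207 mice and 1410 to 1507 in vehicle mice. Their median of -0.07 turned to 0.18 after quantile normalization.

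Pla2g2a, the Paneth cell phospholipase gene, was at 0.91, 1.03 and 0.30 in VND3207 mice and 1.30, 0.16 and 0.56 in vehicle mice. C57BL/6 mice carry a disrupted allele of this gene, so the probe reports a transcript and not the enzyme. VND3207 replicates 1 and 2 and vehicle replicate 1 were above the other 3 mice. The difference was 0.07 ± 0.34 (SE, adjusted p = 0.920), with an interval from -0.74 to 0.89. Paneth markers, a list that holds Pla2g2a, had 3 of 7 measured genes lower and 0 higher, namely the lysozyme gene Lyz1 at -0.65 (adjusted p = 0.00602), Defa26 and Itln1, with a summed level of 1376 to 1603 in VND3207 mice and 1936 to 2014 in vehicle mice. After quantile normalization Defa26 alone passed and the list's median was 0.0048, against -0.40 as reported, and 0 passed after the correction for spot position and brightness (Lyz1 adjusted p = 0.247).

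Duox2, the peroxide-producing oxidase gene, was at -2.92, -1.97 and -4.82 in VND3207 mice and -2.64, -4.26 and -3.90 in vehicle mice. VND3207 replicate 2 was highest and VND3207 replicate 3 lowest, with a reading that was not well above background. Duoxa2, its maturation factor gene, was at -0.83, 0.42 and -2.001 in VND3207 mice and -0.11, -1.99 and -1.62 in vehicle mice on the probe at 122128268 to 122128327 of chromosome 2 (mm9). On the probe at 122128562 to 122128621 it was at -3.78, -2.80 and -4.84 in VND3207 mice and -3.35, -4.55 and -4.62 in vehicle mice. VND3207 replicates 1 and 2 and vehicle replicate 1 were high on all 3 probes, and the other 3 mice were low. The differences of 0.36 ± 0.79 for Duox2, 0.44 ± 0.74 for the first Duoxa2 probe and 0.37 ± 0.59 for the other (SE, limma adjusted p from 0.754 to 0.823) were smaller than the spread between mice. Their 95% intervals, from -1.56 to 2.28 for Duox2, leave room for changes in either direction. Single mice moved these values, to -0.27 for Duox2 and -0.17 for the first Duoxa2 probe without VND3207 replicate 2, and to 1.16 and 1.04 without VND3207 replicate 3.

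Nos2, the inducible nitric oxide synthase gene, was at 0.57, -0.21 and -1.24 in VND3207 mice and 0.97, -0.77 and -0.66 in vehicle mice. The same 3 mice were high as for Duox2, although VND3207 replicate 1 and not replicate 2 was the higher of the pair. The difference was -0.14 ± 0.63 (SE, adjusted p = 0.918), with an interval from -1.67 to 1.39, and the value was -0.57 without VND3207 replicate 1 and 0.42 without vehicle replicate 1. Macrophage markers were summed at 32.4 to 37.4 in VND3207 mice and 38.4 to 54.4 in vehicle mice, with 4 of 6 measured genes above 0 and a median of 0.12. Of these 6, Itgam was called lower at -0.75 (adjusted p = 0.0421), a call just missed after quantile normalization (adjusted p = 0.0501). Neutrophil markers were summed at 92.1 to 117 in VND3207 mice and 78.6 to 115 in vehicle mice, with 5 of 8 above 0 and a median of 0.09. Elane was called lower at -1.04 (adjusted p = 0.00783), whereas Mpo was at 0.61 with every VND3207 mouse above every vehicle mouse (adjusted p = 0.0917) and was called higher after quantile normalization (0.95, adjusted p = 0.0325). The part of these cells in the Nos2 values was not tested.

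**Figure D3:**
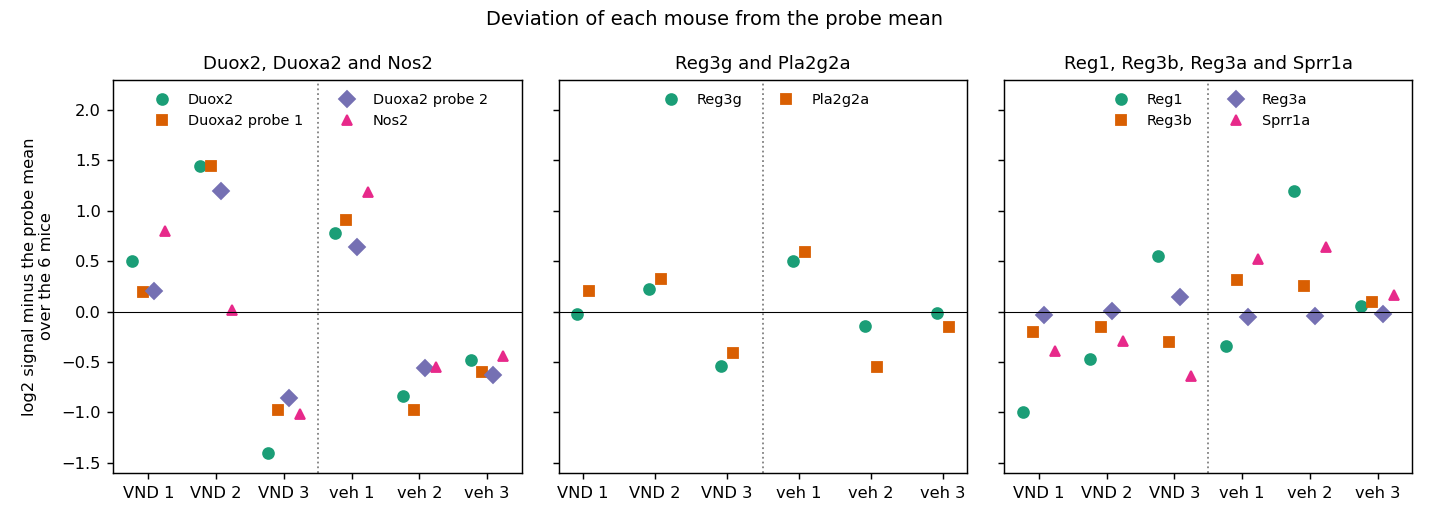
Deviation of each mouse from the mean of the probe over the 6 mice, in log2 units, with VND3207 mice left and vehicle mice right of the dotted line. Duox2, both Duoxa2 probes, Nos2 and Pla2g2a are above their mean in vehicle replicate 1 and VND3207 replicates 1 and 2, and below it in the other 3 mice, while Reg1 is highest in vehicle replicate 2 and VND3207 replicate 3.

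The order in which VND3207 replicates 1 and 2 and vehicle replicate 1 all exceed the other 3 mice was found in 5 of the 10 probes tested, against 6.45% of all probes. These 5 probes stand for 4 genes, and 3 of them for the adjacent pair Duox2 and Duoxa2. The order was noted after the values were seen and has no test. Reg3b and Reg3g joined them after quantile normalization and after the correction for spot position and brightness, giving 7 of 10 probes, against 7.23% and 7.00% of all probes. Within groups, the SD of Duox2, both Duoxa2 probes, Nos2, Reg1, Reg3g and Pla2g2a lay at the 96.4 to 99.6 percentile of the 1000 probes nearest in brightness, the readings of Duox2 and 1 Duoxa2 probe near background included. Reg3a, Reg3b and Sprr1a were at the 14.7, 47.1 and 54.3 percentile.

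Likeness of a profile was measured as the root mean square difference between mean-centred values over the 6 arrays, 0 being identical. The 5 named genes closest to Reg3b were Akt2, Fzd8, Ift122, Creb3l1 and Ncdn, at 0.029 to 0.039, and those closest to Reg3g were Coro2b, Serpinb5, Zbtb4, Mfsd4a and Myh3, at 0.061 to 0.104. For Duox2, looked up after the values were seen, the closest was Slc34a2, a phosphate transporter gene, at 0.225, followed by Duoxa2 at 0.234. Slc34a2 was at -0.21, 0.09 and -2.28 in VND3207 mice and -0.03, -1.73 and -1.16 in vehicle mice.

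Sprr1a was at -2.10, -2.005 and -2.35 in VND3207 mice, against -1.19, -1.07 and -1.55 in vehicle mice. All VND3207 mice were below all vehicle mice. The difference was -0.88 ± 0.17 (SE, n = 3 and 3, limma adjusted p = 0.0172), or 54.2% of the vehicle level. Its probe lies on chromosome 3 at 92287955 to 92288014 (mm9). The value stayed between -1.02 and -0.63 under 16 alternatives, the fits with an array left out included, and passed in 13 of them. Filters, the variance model, 1 probe per gene name and the replicate block cannot change the difference itself, only its adjusted p. Sprr1a did not pass without VND3207 replicate 1 (adjusted p = 0.0528), vehicle replicate 1 (0.0565) or vehicle replicate 2 (0.0652). Among the 1000 probes closest in brightness 14.4% were called lower, and 9.10% had a lower difference than Sprr1a. Markers of stratified squamous epithelium, where Sprr1a is abundant, had 2 of 6 measured genes lower, Lor at -0.77 (adjusted p = 0.0185) and Krt13 at -0.66 (adjusted p = 0.0498). Neither passed after quantile normalization (adjusted p = 0.0810 and 0.0518) or the correction for spot position and brightness (0.114 and 0.123). Their summed level was 8.18 to 11.5 in VND3207 mice and 9.27 to 12.0 in vehicle mice, and their part in the difference was not tested.

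**Figure D4:**
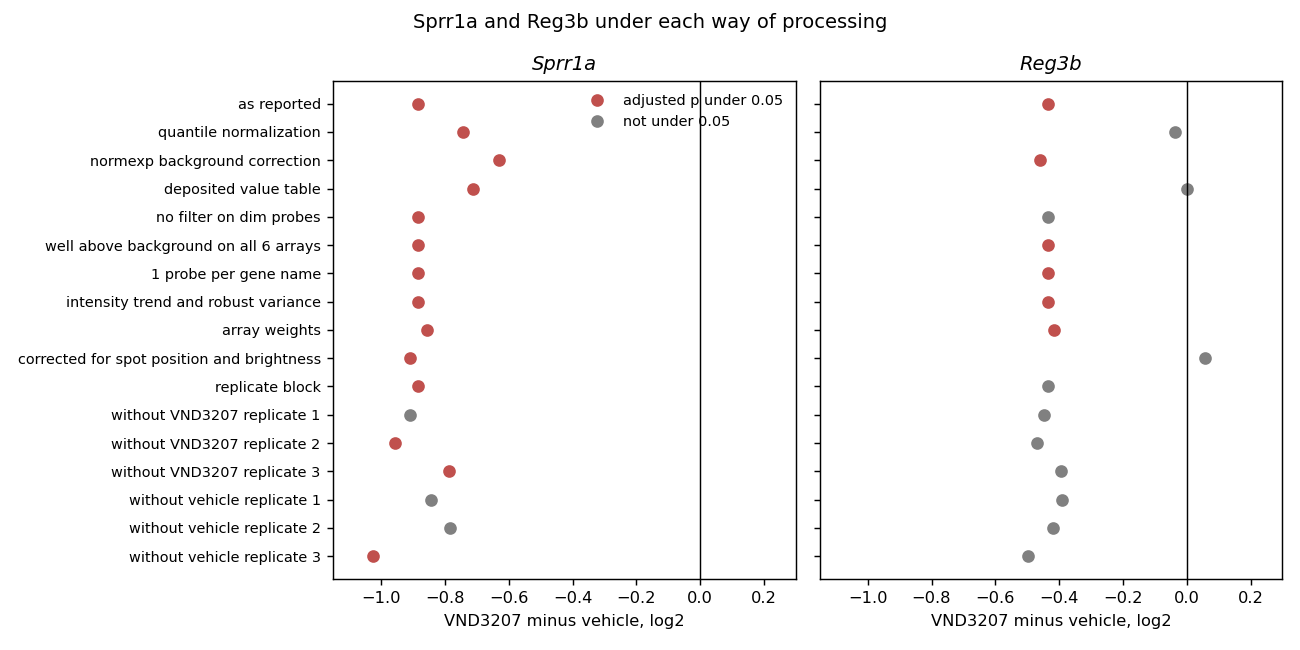
Difference of VND3207 minus vehicle, log2, for Sprr1a and Reg3b as reported and under 16 alternatives, in red where the adjusted p was under 0.05. The alternatives include the fits with an array left out. Sprr1a stays below -0.6 throughout, while Reg3b moves to -0.04, 0.00016 and 0.06 under quantile normalization, the deposited value table and the correction for spot position and brightness.

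Of the other Sprr genes, 14 symbols were on the array and 3 were measured, with 2 called lower and 0 higher. Sprr2i and Sprr2j-ps were well above background on 0 of 3 VND3207 and 3 of 3 vehicle arrays. The share of spots well above background was also lower on the VND3207 arrays as a whole (58.8% to 61.4%, against 66.7% to 70.0%). Sprr2i and Sprr2j-ps entered the test only through the vehicle arrays, so no fold is given. Their calls (limma adjusted p = 0.00762 and 0.0250) do not support a decrease. Both lost the call with normexp background correction (adjusted p = 0.101 and 0.0697), as did Sprr2j-ps after quantile normalization and after the correction for spot position and brightness (adjusted p = 0.0708 and 0.0634). Sprr2a2, of a subfamily with antibacterial products in the mouse gut, was at -0.37 ± 0.11 on the brightest of its 3 probes (SE, limma adjusted p = 0.0713). That probe was at -0.48 with a call under normexp background correction (adjusted p = 0.0215), and at -0.04 after the correction for spot position and brightness. Sprr2 genes are near-identical copies, so their probes may share transcripts.

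Upstream of these genes, the IL-22 and STAT3 route had 2 of 15 measured genes lower and 0 higher, with a median of -0.05. Il22ra1, the IL-22 receptor subunit, was at -3.29, -3.71 and -3.78 in VND3207 mice and -2.16, -2.14 and -2.27 in vehicle mice. Its difference was -1.40 ± 0.15 (SE, adjusted p = 0.00335), and it passed in the same direction after quantile normalization (-1.16), normexp background correction (-0.74) and the correction for spot position and brightness (-0.97). Fut2, a fucosyltransferase gene that IL-22 induces in epithelium, was well above background on 0 of 3 VND3207 and 3 of 3 vehicle arrays. It entered the test only through the vehicle arrays, so no fold is given. Its call (limma adjusted p = 0.0399) does not support a decrease. The call was lost after quantile normalization (adjusted p = 0.192), with normexp background correction (0.329) and after the correction for spot position and brightness (0.215). Il22 itself was at -0.91 ± 0.56 (adjusted p = 0.373) with overlapping groups, and Stat3 at 0.10 ± 0.13 (adjusted p = 0.698).

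Microbial sensing and NF-kB genes had 0 of 16 calls, and 3 members had an unadjusted p under 0.05, with a median of 0.02. Myd88, the adaptor of most Toll-like receptors, was at 0.27 ± 0.15 (SE, adjusted p = 0.321). NADPH oxidase genes had 0 of 9 calls, 1 with an unadjusted p under 0.05 and a median of 0.12, Duox1 being at -0.43 ± 0.25 (adjusted p = 0.350) and Duoxa1 at 0.07 ± 0.18 (adjusted p = 0.843). In the lists of nitric oxide and arginine genes and of the type 2 response, which induces Retnlb, 0 of 6 and 0 of 7 passed, 0 had an unadjusted p under 0.05, and the medians were 0.04 and 0.06. The cytokine genes Il4, Il13 and Il25 of the type 2 list were too dim to be tested. Other secretory phospholipases A2 had 1 of 10 lower, Pla2g2e at -0.96 ± 0.16 (adjusted p = 0.0109), with a median of -0.05 that turned to 0.11 after quantile normalization.

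Other inducible antimicrobial and acute phase genes had 0 of 12 calls and 3 with an unadjusted p under 0.05 (limma), while 10 of 12 were above 0, with a median of 0.34. Saa3, an acute phase gene singled out after its values were seen, was at 3.99, 1.77 and 1.86 in VND3207 mice and 1.38, 0.64 and 0.92 in vehicle mice. Every VND3207 mouse was above every vehicle mouse, yet with a difference of 1.56 ± 0.62 (SE, adjusted p = 0.167) it did not pass.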

How the data were processed

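Gene expression was measured on 6 arrays, 1 for each of 3 VND3207 and 3 vehicle mice, grouped by their titles. Per the file headers, the deposited intensity values come from Agilent Feature Extraction 10.7.1.1 and are detrended and background-subtracted within each array. The deposited table of log2 values has columns with a shared median of 6.05; how it was made is not given in the sources used here.

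After removal of control and outlier spots, the log2 values of a probe's spots were averaged, less the 75th percentile of the array (59305 non-control spots). Probes well above background on at least 3 of 6 arrays were fitted with limma 3.58.1 in R 4.3.3, group as the only term, 2-sided, with Benjamini-Hochberg adjustment and a threshold of 0.05. The fit was checked on simulated data. ± gives the moderated SE. Probes were fitted singly so that every member probe has a value. A pathway or marker gene with several tested probes is given by the brightest of them.

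Members, lists and tests were chosen with earlier results of these data known. All 10 members are named, and of each pathway list the genes past the threshold (at most 4) and a few fixed ones; marker genes are named where called or where a value bears on them. Probe positions are mm9, and promoter sequences are RefSeq's on GRCm38.p6, aligned with Biopython 1.88. Deviations of same-numbered mice from their group means correlated at 0.13, -0.11 and -0.05, and those of differently numbered mice at -0.26 to 0.30. With 3 mice a group, these values cannot settle whether the numbers pair mice, and the main fit did not pair them. Alternatives were other scalings, background corrections, filters, variance models, 1 probe per gene name, a smooth correction for spot position and brightness (mgcv 1.9.3), the replicate number as a block, and each array left out.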

Additional observations from a re-analysis of the deposited data

How the results depend on the processing

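Sprr1a (-1.02 to -0.63) and Reg1 (-1.03 to -0.16) were below 0 under all 16 alternatives. Sprr1a passed in 13 of these, whereas Reg1 passed in 0 (limma adjusted p from 0.245 to 0.895). Duox2, the Duoxa2 probes, Nos2, Reg3a, Reg3g and Pla2g2a also passed under none of the alternatives, and their signs differed between some. The count of member probes called, 2 lower as reported, was 1 after quantile normalization, in the deposited value table, with no filter on dim probes, after the correction for spot position and brightness, and with the replicate number as a block; without 1 array it ranged from 0 to 1. Reg3b was near 0 in the deposited value table (0.00016, limma adjusted p = 0.999) and after the correction for spot position and brightness (0.056, adjusted p = 0.788). The cause was not tested. With the replicate block, Reg3b kept -0.44 at an adjusted p of 0.0845, and the calls over all probes were 3553 (143 higher, 3410 lower), against 5593 (334 higher, 5259 lower) as reported. Over all probes, quantile normalization gave 852 higher and 3257 lower, the deposited values 919 higher and 3176 lower, the correction for spot position and brightness 1096 higher and 2935 lower, no filter 662 higher, normexp 3169 in all with 2832 lower, and a filter on all 6 arrays 3206 in all with 2923 lower. Without 1 array the total was 3127 to 5358, with 126 to 287 higher and 2966 to 5071 lower. The median of all probes was -0.06 as reported and 0.05 in the deposited value table. Retnlb, and Duox2 and 1 Duoxa2 probe in VND3207 replicate 3, were limited by signal over background.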
